A study of Mus musculus with 6 samples.

Results

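The cluster of miR-221 and miR-222 is a pair of microRNA (miRNA) genes on the X chromosome. Its members here were the mature miRNA rows of the deposited table named miR-221 or miR-222 once the arm suffix was dropped. This gave 4 rows, miR-221-3p, miR-221-5p, miR-222-3p and miR-222-5p, of 1974 mature rows in all. The rows came from 6 small RNA libraries of heart cardiomyocytes, the contractile cells of the heart, of C57BL/6 mice. Adult LncSync-/- mice, which lack the long non-coding RNA LncSync (knockout, KO), gave 2 libraries and adult wild-type (WT) mice gave 2. Embryos at embryonic day e13.5 gave 1 LncSync-/- and 1 wild-type library. The labels do not say how the deletion was made, how the cells were isolated, the age of the adults, or whether each replicate is its own animal. The p-values therefore rest on a library-to-library spread that may be technical. LncSync itself is not measured by these miRNA counts, so its loss could not be checked directly.

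A miRNA is a short RNA cut from a hairpin precursor. Each hairpin can give a mature strand from its 5p arm and another from its 3p arm, and the strand that is kept guides repression of messenger RNAs that pair with its seed, bases 2 to 8. miR-221 and miR-222 are best known from vascular cells. In endothelial cells they repress Kit, the receptor for stem cell factor, and in dividing cells they repress Cdkn1b (p27) and Cdkn1c (p57), inhibitors of cyclin-dependent kinases. In rat vascular smooth muscle they promote proliferation, and in mice miR-222 is needed for growth of the heart with exercise.

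The sequences show what the members share. RefSeq (GRCm38.p6) held a mature sequence for 3 of the 4 members, given here 5′ to 3′ with the seed in capitals, together with the other mature mouse miRNA that has the seed of the 3p arms.
miR-221-3p: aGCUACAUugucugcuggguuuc
miR-222-3p: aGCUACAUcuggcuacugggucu
miR-1928: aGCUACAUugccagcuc
miR-221-5p: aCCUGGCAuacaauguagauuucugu
The 3p arms of miR-221 and miR-222 are 23 bases long. Aligned from the 5′ end they are identical over their first 8 bases and at 3 of the 15 that follow, so a full-length read of one differs from the other outside the seed. The seed of miR-221-5p was found in 0 other mature miRNAs of the 1679 in the RefSeq table. miR-1928, the other miRNA with the 3p seed, had 0 mature counts in each of the 6 libraries and at most 6 hairpin counts.

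In mm10 (GRCm38) both hairpins are transcribed from the minus strand of chromosome X. Mir221 occupies 19146294 to 19146388 and Mir222 occupies 19146893 to 19146971, with 504 bases between them. In GENCODE 0 other genes overlap this span. The nearest annotated gene on the higher-coordinate side, from which minus-strand transcription arrives, is the non-coding transcript gene Gm14636, 10009 bases away on the same strand. On the other side the nearest is the pseudogene Gm5383, 203065 bases away. The deposited hairpin counts equalled the sum of the arms in every library for mir-221. For mir-222 the exception was 4 of 3502 reads in adult WT replicate 2.

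Mature counts totalled 14347091 and 17608586 in the adult KO libraries, 17933518 and 16794840 in adult WT, 2671957 in e13.5 KO and 8944552 in e13.5 WT. Levels are given as CPM, the count scaled to a fixed mature total per library. The most that 0 counts would allow, set at 3 counts, was 1.123 CPM in the e13.5 KO library and 0.1673 to 0.3354 CPM in the others. Kits ligate some miRNAs better than others, so levels of different arms are compared between libraries rather than read as numbers of molecules. This takes the bias to be alike in all libraries, which the counts cannot show. Any difference of preparation between the adult and e13.5 libraries cannot be told apart from stage. The intervals given for single libraries cover counting error only. As a check of the cell label, the cardiomyocyte miRNAs (miR-1a, miR-133a, miR-133b, miR-208a, miR-208b and miR-499) summed to 281700 to 395300 CPM in adults and 98600 to 146200 CPM at e13.5. Smooth muscle miRNAs summed to 71130 to 115700 CPM in adults and 211600 to 351000 CPM at e13.5. Most of that sum was 1 arm, miR-143-3p, with 87000 CPM ± 19300 (SD, n = 4) in adults, 211000 CPM in e13.5 KO and 350000 CPM in e13.5 WT. miR-145a-5p ran the other way, with 4440 CPM ± 1070 (SD, n = 4) in adults, 748 CPM in e13.5 KO and 1130 CPM in e13.5 WT. Endothelial miRNAs (miR-126a and miR-126b), a cell type in which the cluster is known to be active, summed to 16490 to 31070 CPM in adults and 16340 to 18990 CPM at e13.5. In such bulk libraries fewer cells of a type and less RNA per cell cannot be told apart.

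miR-221-3p, the main arm of its hairpin, was an adult miRNA in these libraries. It had 1730 and 535 CPM in adult KO, 1410 and 882 CPM in adult WT, 26.6 CPM in e13.5 KO (95% counting interval 20.8 to 33.5) and 12.6 CPM in e13.5 WT (10.4 to 15.2). Every adult library lay above both e13.5 libraries, and the lowest adult value was 20.1 times the highest e13.5 value. Among detected miRNAs it ranked from 53rd to 74th by counts in the adult libraries and 261st and 303rd at e13.5.

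miR-222-3p followed the same order between stages with a smaller difference. It had 282 and 130 CPM in adult KO, 316 and 202 CPM in adult WT, 75.6 CPM in e13.5 KO (65.5 to 86.8) and 13.8 CPM in e13.5 WT (11.4 to 16.4). The lowest adult library was 1.72 times the e13.5 KO library, and the e13.5 KO and WT libraries stood far apart.

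The 5p arms were rare. miR-221-5p had 17.3 and 13.8 CPM in adult KO, 20.9 and 16.8 CPM in adult WT, 15.7 CPM in e13.5 KO (11.3 to 21.2) and 5.14 CPM in e13.5 WT (3.77 to 6.86). The e13.5 KO library lay within the adult range, so adult and e13.5 libraries overlapped for this arm. miR-222-5p, whose counts ran from 29 to 103 in adults, had 4 counts in e13.5 KO and 8 in e13.5 WT. In CPM it stood at 2.02 and 2.27 in adult KO, 3.62 and 6.13 in adult WT, 1.5 in e13.5 KO (0.408 to 3.83) and 0.894 in e13.5 WT (0.386 to 1.76).

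**Figure D1:**
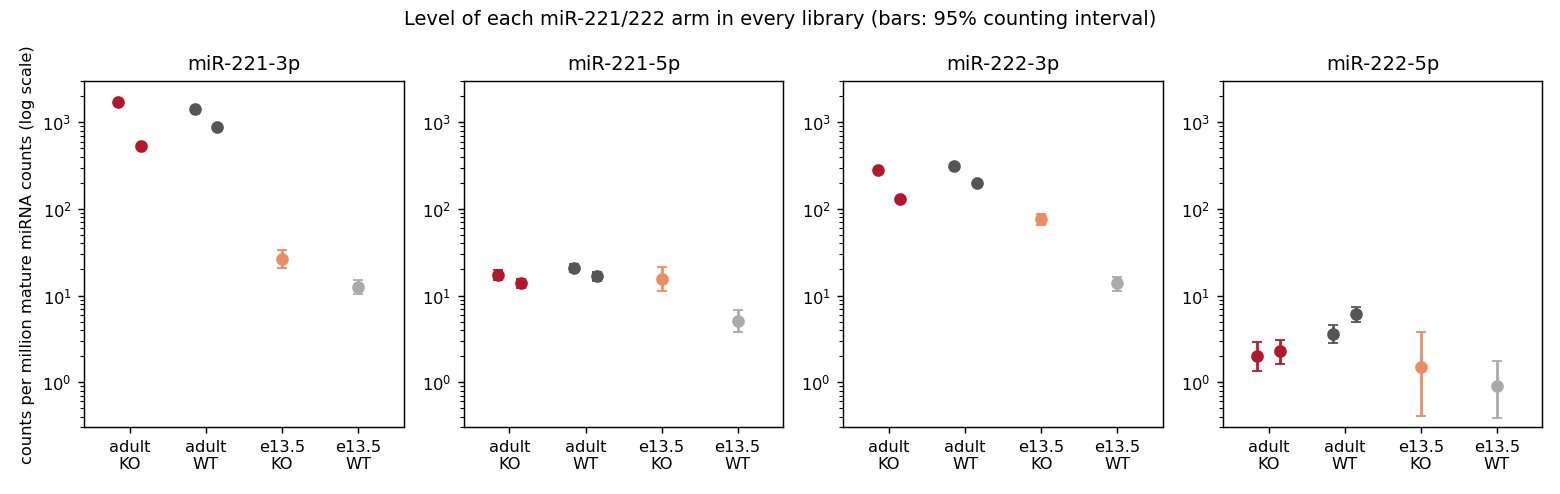
Level of each arm in CPM (log axis) for the adult KO, adult WT, e13.5 KO and e13.5 WT libraries; each point is 1 library and each bar its exact 95% counting interval. miR-221-3p lay at 535 to 1730 CPM in adults and 12.6 to 26.6 CPM at e13.5, whereas miR-221-5p in the e13.5 KO library, at 15.7 CPM, was within the adult range of 13.8 to 20.9 CPM.

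The first comparison was between adult and e13.5 cardiomyocytes. Log2 folds in this contrast are e13.5 over adult, so negative values mean lower at e13.5. miR-221-3p had a mean of 1140 CPM in the 4 adult libraries (SD 534) and of 19.6 CPM in the 2 e13.5 libraries (SD 9.86), a ratio of means of 58.1. Its log2 fold was −6.93 (SE 0.66, adjusted p = 9.81e-05, edgeR quasi-likelihood test over all 6 libraries with genotype in the model, Benjamini-Hochberg adjusted). miR-222-3p had a mean of 233 CPM in the adult libraries (SD 83.5) and of 44.7 CPM in the e13.5 libraries (SD 43.7), and its log2 fold was −3.75 (SE 0.67, edgeR adjusted p = 0.00173). Both were lower at e13.5 in 2 of 2 libraries. miR-221-3p had the 25th lowest fold of the 679 miRNAs tested and miR-222-3p the 115th.

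The 5p arms also passed, with log2 folds of −1.98 for miR-221-5p (SE 0.60, edgeR adjusted p = 0.022) and −2.61 for miR-222-5p (SE 0.90, edgeR adjusted p = 0.0347). All 4 members were thus lower at e13.5 in this fit, against 28.4% of the 679 miRNAs tested that were lower and 57.7% that passed in either direction. The share lower over all miRNAs was 19.6% by median-of-ratios scaling, where 35.5% were higher, and 17.7% by library totals, where 38.7% were higher. The calls of the 5p arms rested on the scaling. With library totals the log2 fold of miR-221-5p was −0.83 (edgeR adjusted p = 0.416) and that of miR-222-5p −1.47 (edgeR adjusted p = 0.28). With median-of-ratios factors they were −1.19 (edgeR adjusted p = 0.108) and −1.82 (edgeR adjusted p = 0.101). The 3p arms passed with each of these scalings.

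The scalings differ mainly in where they put the middle of all miRNAs, with a median log2 fold of −0.06 by TMM, 0.72 by median-of-ratios factors and 0.93 by library totals. Relative to that median, miR-221-3p stood at −6.87, −6.89 and −6.86, and miR-222-3p at −3.69, −3.68 and −3.54. miR-221-5p stood at −1.92, −1.91 and −1.76 by the same measure, and miR-222-5p at −2.55, −2.54 and −2.40. A change of scaling shifts nearly all miRNAs alike, so the closeness of these values to each other carries little information.

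Within the genotypes, miR-221-3p had a log2 fold of −6.34 (edgeR adjusted p = 4.5e-05) in the knockout libraries alone and −7.06 (edgeR adjusted p = 8.71e-33) in the wild-type libraries alone. miR-222-3p had −2.44 in the knockout libraries, where it no longer passed (edgeR adjusted p = 0.0841), and −4.80 in the wild-type libraries (edgeR adjusted p = 4.66e-16). Each of these fits has 1 embryonic library, which is assumed to vary like the adult ones, and the very small p-values rest on that assumption. Leaving out any 1 library left both 3p arms past the threshold. By contrast miR-221-5p no longer passed without the e13.5 WT library or without any 1 of the 4 adult libraries (log2 folds −1.81 to −1.40). miR-222-5p no longer passed without either e13.5 library, without adult KO replicate 2 or without either adult WT replicate (−3.06 to −1.90).

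**Figure D2:**
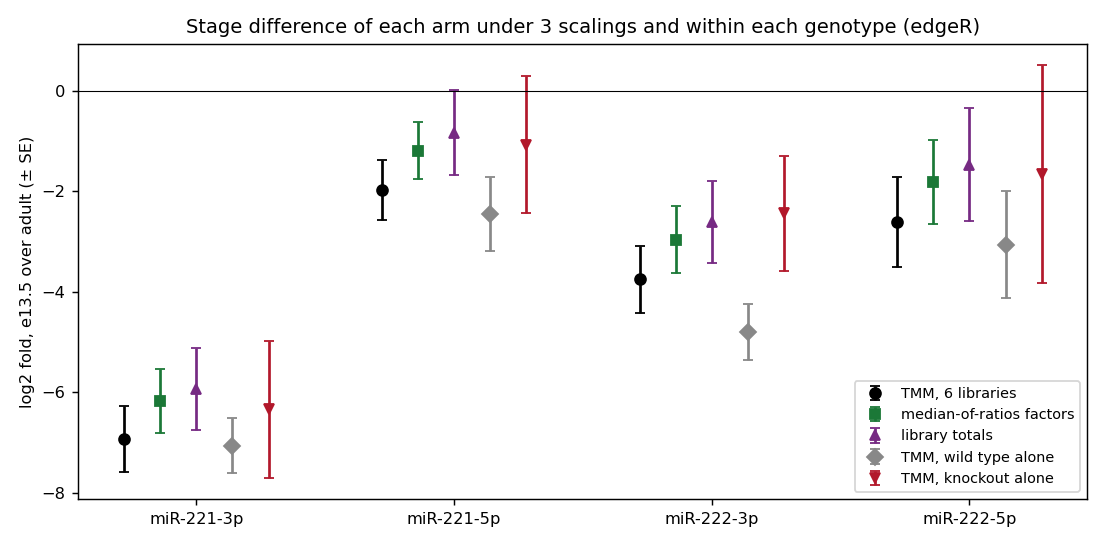
Log2 fold of each arm, e13.5 over adult, with its SE (edgeR), over all 6 libraries with 3 scalings and, with TMM scaling, within each genotype. miR-221-3p lay between −7.06 and −5.93 in all 5 fits, while miR-221-5p ran from −2.45 to −0.83.

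Markers of other cells moved with stage as well. Leukocyte miRNAs (miR-142a, miR-142b, miR-223, miR-150 and miR-155) summed to 997.6 to 2136 CPM in adults and 66.41 to 128.4 CPM at e13.5, with 4 of 7 tested members lower at e13.5 and the rest not past the threshold. The 4 were arms of miR-150, miR-223 and miR-155, while neither arm of miR-142a passed. miR-142a-5p had 37.1 CPM ± 15.7 (SD, n = 4) in adults, 51.6 CPM in e13.5 KO and 15.8 CPM in e13.5 WT. Its log2 fold was −1.37 (edgeR adjusted p = 0.0555), and that of miR-142a-3p was −0.83 (edgeR adjusted p = 0.5). In each library 1 of the 9 rows of this list was at 0. Both tested endothelial arms were lower at e13.5, with miR-126a-3p at 22100 CPM ± 5620 (SD, n = 4) in adults, 15400 CPM in e13.5 KO and 17200 CPM in e13.5 WT (log2 fold −1.55, edgeR adjusted p = 0.0435). DESeq2 called 0 of these 2 arms and limma 2. Of the other lists, smooth muscle had 3 of 5 tested members lower by edgeR (4 called by DESeq2, 3 by limma) and cardiomyocyte 7 of 9 lower and 1 higher (7 and 8 called). Mesenchymal or fibroblast miRNAs had 1 of 5 higher by edgeR (3 and 3 called), and erythroid miRNAs 2 of 5 higher and 2 lower (4 and 4 called). Over all miRNAs tested, edgeR called 28.4% lower and 29.3% higher. The part of these in the difference of miR-221-3p and miR-222-3p was not tested.

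The arms of the miR-221 hairpin were also used in different proportions at the 2 stages. The 3p arm held 99.0% and 97.5% of miR-221 arm counts in adult KO and 98.5% and 98.1% in adult WT. It held 62.8% in e13.5 KO (71 of 113 counts, Wilson 95% interval 53.6 to 71.2) and 71.1% in e13.5 WT (113 of 159 counts, 63.6 to 77.6). The intervals of the embryonic libraries lay far below every adult library. For miR-222 the 3p share was 99.3% and 98.3% in adult KO and 98.9% and 97.1% in adult WT, and 98.1% in e13.5 KO (95.1 to 99.2) and 93.9% in e13.5 WT (88.4 to 96.9), so for this hairpin the stages overlapped.

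Over the 185 hairpins with 2 arms that passed the filter, the change of the log2 ratio of 3p to 5p counts, e13.5 minus adult, was tested with limma. This test was added after the shares were seen. For miR-221 the change was −4.92 (SE 0.79, limma adjusted p = 9.62e-09), the 15th lowest, and for miR-222 it was −1.69 (SE 0.92, limma adjusted p = 0.103). The background of such changes was broad, since 54.6% of hairpins passed in either direction and 33.5% were lower at e13.5, with a median change of −0.78. limma took 1 shared trend of spread for all hairpins, 0.92 log2 units at miR-221 against 0.61 between the libraries of miR-221 itself. Over 10 other settings the adjusted p of miR-221 ran from 5.56e-10 to 0.0235. miR-222 passed in 1 of them, without adult KO replicate 2 (−2.01, limma adjusted p = 0.0419). A ratio of arms shows unequal change and does not by itself say which arm moved. In plain CPM miR-221-3p averaged 1140 in adults and 19.6 at e13.5, and miR-221-5p 17.2 and 10.4.

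**Figure D3:**
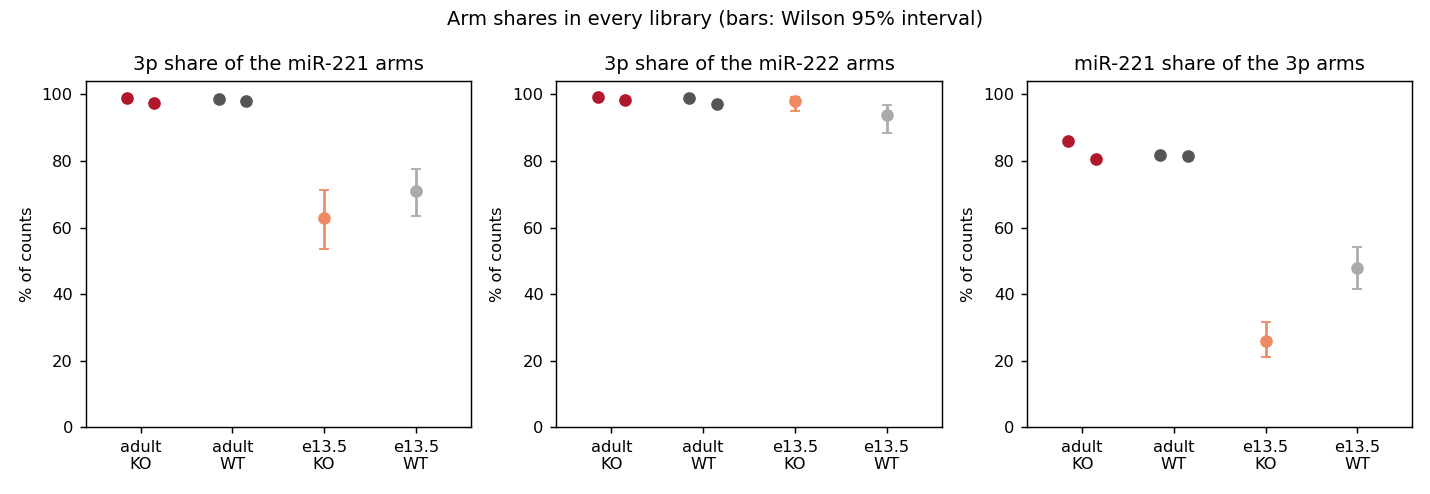
Percent of counts in every library, with Wilson 95% intervals, for the 3p arm of miR-221, the 3p arm of miR-222 and the miR-221 part of both 3p arms. The e13.5 KO and WT libraries lay at 62.8% and 71.1% in the left panel and at 26.0% and 47.9% in the right panel, but at 93.9% or more in the middle one.

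**Figure D4:**
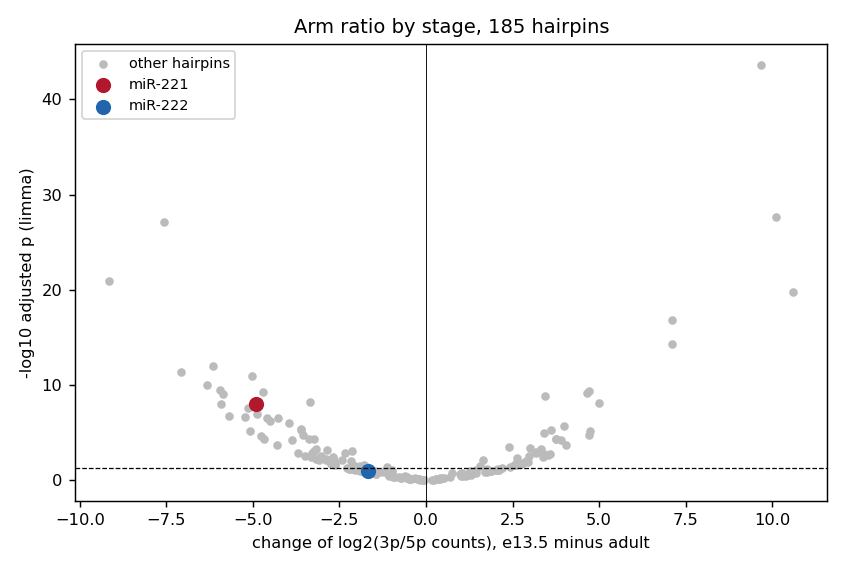
Change of log2(3p/5p counts), e13.5 minus adult, against −log10 of limma's adjusted p for 185 hairpins; the dashed line is the threshold of 0.05. miR-221 lies at −4.92, above the line among many other hairpins, and miR-222 at −1.69, below it.

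The balance between the 2 hairpins shifted too. There were 6.14 and 4.12 counts of miR-221-3p for each count of miR-222-3p in adult KO and 4.45 and 4.36 in adult WT. The ratio was 0.351 in e13.5 KO and 0.919 in e13.5 WT, so miR-221-3p exceeded miR-222-3p in every adult library and in neither embryonic one. As a share of both 3p arms, miR-221-3p held 80.5% to 86.0% in adults, 26.0% in e13.5 KO (21.2 to 31.5) and 47.9% in e13.5 WT (41.6 to 54.2). Adults exceeded e13.5 by 3.05 in the mean log2 ratio, and the two-sided exact permutation p of 0.133 is the smallest that 4 against 2 libraries allow. Between the 5p arms the balance overlapped more, with miR-221-5p at 73.2% to 89.5% of both 5p arms in adults and 91.3% and 85.2% in e13.5 KO and WT. The sum of the 3p arms, which share the seed, was 2010 and 665 CPM in adult KO, 1720 and 1080 CPM in adult WT, 102 CPM in e13.5 KO and 26.4 CPM in e13.5 WT.

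The second comparison was between LncSync-/- and wild-type adults, with folds given as KO over WT. The 2 KO libraries lay on either side of the WT libraries for miR-221-3p, which averaged 1130 CPM ± 847 in KO and 1140 ± 371 in WT (SD, n = 2 each). Its log2 fold was 0.08 (SE 0.48, edgeR adjusted p = 0.999), and −0.01 with library totals. miR-222-3p averaged 206 CPM ± 108 in KO and 259 ± 80.5 in WT (SD, n = 2 each), and KO over WT stood at −0.18 on the log2 scale (SE 0.43, edgeR adjusted p = 0.999). The knockout range of 130 to 282 CPM overlapped the wild-type range of 202 to 316 CPM.

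Among the 5p arms, miR-221-5p had a log2 fold of −0.04 (SE 0.47) and miR-222-5p of −0.93 (SE 0.70), with 0.999 as the edgeR adjusted p of both. For miR-222-5p, at 29 and 40 counts in KO and 65 and 103 counts in WT, both KO libraries lay below both WT libraries in CPM. The genotypes did not overlap in CPM for 23.9% of the 544 miRNAs tested. After TMM scaling KO replicate 2 and WT replicate 1 were nearly level for miR-222-5p, at 4.0 and 4.02 CPM. No member passed, against 0.735% of 544 miRNAs tested, and edgeR and DESeq2 called 4 miRNAs and limma 5. At an unadjusted p under 0.05 edgeR had 16. The direction of miR-221-3p was set by single libraries, with a log2 fold of −0.48 without KO replicate 1, 0.39 without KO replicate 2, 0.28 without WT replicate 1 and −0.24 without WT replicate 2.

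In plain CPM, the adult libraries stood in an order for miR-221-3p that several other measures shared. From high to low this was KO replicate 1, WT replicate 1, WT replicate 2 and KO replicate 2, at 1730, 1410, 882 and 535 CPM of miR-221-3p. Erythroid miRNAs (miR-451a, miR-144, miR-486a and miR-486b) summed to 22280, 15710, 10390 and 5651 CPM in that order, and leukocyte miRNAs to 2136, 1481, 1109 and 997.6 CPM. In adults most of the erythroid sum was 1 arm, miR-486a-5p, with 13100 CPM ± 6850 (SD, n = 4), against 161 CPM ± 163 for miR-451a. The adult sum thus mainly reads miR-486a-5p and says little about the rest of the list. With stage these 2 arms moved in opposite directions, with log2 folds of −3.75 for miR-486a-5p and 2.76 for miR-451a. The order was also that of the summed miRNAs that repress Cip/Kip inhibitors of the cell cycle, at 3439, 3285, 2555 and 2005 CPM. It was that of the TMM factors too, at 0.9616, 0.9022, 0.7554 and 0.5674. Divided by these factors, miR-221-3p kept the order, at 1800, 1560, 1170 and 943 CPM. The leukocyte and Cip/Kip sums did not keep it when divided in the same way. Summed cardiomyocyte miRNAs ran in the reverse order, at 281700, 316200, 333700 and 395300 CPM. CPM share a fixed total, of which this list is a large part, and the TMM factors depend on the same composition. These orders are therefore not independent of each other. The endothelial, smooth muscle and mesenchymal or fibroblast sums followed neither order. Of the 544 miRNAs tested in adults 109 had the order of miR-221-3p in CPM and 47 after TMM scaling, so that order was not limited to the erythroid and leukocyte lists. With 4 libraries this is a description, and the part of the shared order in the spread of miR-221-3p was not tested.

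At e13.5, with 1 library per genotype and so no replicate check, miR-222-3p had 202 counts in KO and 123 in WT despite the smaller KO library. Its CPM ratio of KO to WT was 5.50 (95% counting interval 4.37 to 6.94). The ratio was 3.06 (1.96 to 4.75) for miR-221-5p, 2.10 (1.54 to 2.86) for miR-221-3p and 1.67 (0.369 to 6.25) for miR-222-5p, whose interval includes 1. After TMM scaling the log2 folds were 1.64 for miR-222-3p, 0.78 for miR-221-5p and 0.27 for miR-221-3p. miR-222-3p was thus at least 2-fold higher in the KO library, as were 17.5% of the 565 miRNAs described (those reaching 10 counts in a library of this pair), while 31.3% were at least 2-fold lower and 0 of the 3 described arms was. By library totals the balance turned round, with 31.2% at least 2-fold higher and 14.3% lower, and all 3 described arms were then at least 2-fold higher.

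Relative to the median of these 565, which was −0.42 by TMM and 0.37 by library totals, miR-222-3p stood at 2.06 and 2.08, miR-221-5p at 1.20 and 1.21, and miR-221-3p at 0.69 with either. Between 2 libraries a scaling shifts every miRNA alike, so the likeness of these values carries no information. Erythroid miRNAs, with 4 of 5 members at least 2-fold higher in KO under both scalings, summed to 14320 CPM in e13.5 KO and 748.4 CPM in e13.5 WT, with 0 of 5 rows at 0. Cardiomyocyte miRNAs were at least 2-fold lower in KO in 9 of 9 members after TMM scaling and in 6 of 9 by library totals, and they summed to 98600 CPM in KO and 146200 CPM in WT. The part of these lists in the difference of miR-222-3p was not tested, and genotype cannot be told apart from the library.

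Whether the knockout difference itself differed between stages was tested as a genotype by stage interaction, whose spread comes from the adult replicates. Its log2 estimate, the KO over WT difference at e13.5 minus that in adults, was 1.91 for miR-222-3p (SE 0.86, unadjusted p = 0.0544, edgeR adjusted p = 0.842). It was 0.27 for miR-221-3p (SE 0.88), 0.91 for miR-221-5p (SE 1.10) and 0.94 for miR-222-5p (SE 1.78), with edgeR adjusted p-values of 0.949 or more. Of 769 miRNAs tested, 0% passed in edgeR, although 46 had an unadjusted p under 0.05. DESeq2 called 4 and limma 0. Without adult KO replicate 1 the estimate for miR-222-3p was 2.06 and passed (edgeR adjusted p = 0.0286), in a fit that called 87 miRNAs. Over the 11 other settings its adjusted p ran from 0.0286 to 1.

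Averaged over stages, with 3 libraries per genotype, no member passed, against 0.736% of 679 miRNAs. The KO over WT log2 folds were 0.09 for miR-221-3p (SE 0.43), 0.36 for miR-222-3p (SE 0.53), 0.19 for miR-221-5p (SE 0.51) and −0.74 for miR-222-5p (SE 0.74), all with 0.989 as the edgeR adjusted p. In this fit edgeR, DESeq2 and limma each called 5 miRNAs, and edgeR had 14 at an unadjusted p under 0.05.

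The other miRNAs listed as repressing the Cip/Kip inhibitors (p21, p27 and p57) were miR-17, miR-20a, miR-20b, miR-93, miR-106a, miR-106b and miR-25, with 12 of 14 rows tested. By edgeR 3 were lower at e13.5, 2 were higher and 7 did not pass, where 57.7% of all miRNAs tested passed in either direction. The list had a median log2 fold of −0.38 against −0.06 over all miRNAs. miR-20a-5p and miR-17-5p, which act on p21, were higher at e13.5. miR-20a-5p had 82.2 CPM ± 22.1 (SD, n = 4) in adults, 1400 CPM in e13.5 KO and 1540 CPM in e13.5 WT (log2 fold 3.11, edgeR adjusted p = 0.000987). miR-17-5p had 64.0 CPM ± 16.3 (SD, n = 4) in adults, 443 CPM in e13.5 KO and 611 CPM in e13.5 WT (log2 fold 2.02, edgeR adjusted p = 0.00834).

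Those lower at e13.5 after TMM scaling were miR-25-3p, miR-93-5p and miR-20a-3p. miR-25-3p, which acts on p57, had 1530 CPM ± 402 (SD, n = 4) in adults, 1760 CPM in e13.5 KO and 1120 CPM in e13.5 WT (log2 fold −1.15, edgeR adjusted p = 0.0405). miR-93-5p, which acts on p21, had a log2 fold of −1.33 (edgeR adjusted p = 0.0296), and the rare arm miR-20a-3p −3.83 (edgeR adjusted p = 0.0292). DESeq2, which uses median-of-ratios factors, called 3 of the 12 rows and limma 5. The adult range of the list's sum was 2005 to 3439 CPM, and it stood at 4960 CPM in e13.5 KO and 4197 CPM in e13.5 WT. In the adult genotype comparison 0 of 11 tested rows passed by edgeR, DESeq2 or limma, with 1 at an unadjusted p under 0.05 by edgeR.

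Likeness of pattern was measured as the root mean square difference between log2 TMM-scaled CPM profiles over the 6 libraries, each centred on its own mean, among 171 other tested miRNAs with a mean of at least 100 CPM. It is a description, and since stage dominates the profiles it mostly reads the size of the stage difference. miR-34a-5p was nearest to miR-221-3p, at 0.34 log2 units, with 430 to 1470 CPM in adults, 14.2 CPM in e13.5 KO and 14.3 CPM in e13.5 WT. It was followed by miR-150-5p (0.43) and miR-223-3p (0.49), both in the leukocyte list, and by miR-23a-3p (0.52) and miR-378b (0.54), against a median of 2.70. The log2 stage folds of these 5 ran from −7.03 to −6.42.

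miR-222-3p kept other company. Its nearest were let-7d-3p (0.32 log2 units), miR-339-5p (0.47), miR-486a-3p (0.51), which is in the erythroid list, miR-328-3p (0.56) and miR-191-5p (0.59), against a median of 1.63. All 5 had more CPM in the e13.5 KO than in the e13.5 WT library, which partly follows from picking them for likeness to miR-222-3p. More CPM in the KO library was also the common case. The median log2 ratio over the 565 miRNAs described at e13.5 was 0.37 by library totals. let-7d-3p, for example, had 319 CPM in e13.5 KO and 118 CPM in e13.5 WT, and miR-486a-3p had 85.0 CPM in e13.5 KO and 11.5 CPM in e13.5 WT. miR-222-3p was 1.5 log2 units from miR-221-3p, which would place it 33rd among the candidates for miR-221-3p, and miR-221-3p 75th among those for miR-222-3p.

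**Figure D5:**
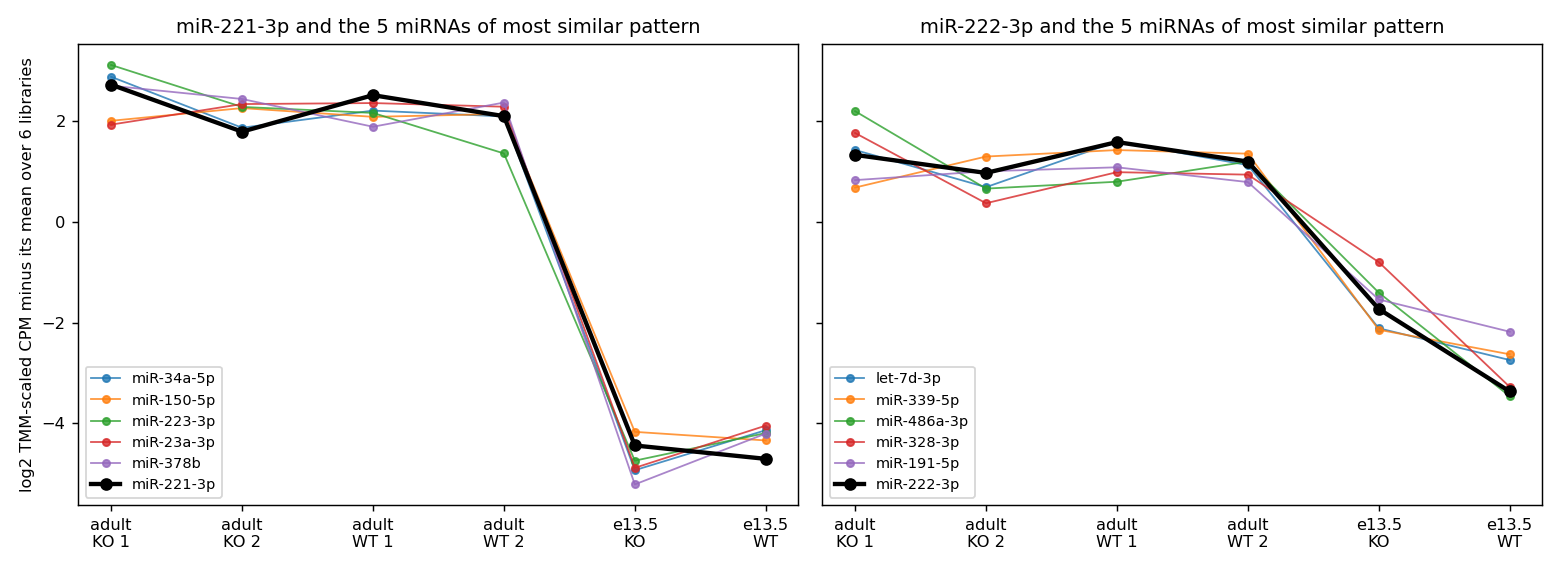
Log2 TMM-scaled CPM minus its mean over the 6 libraries, for miR-221-3p (left) and miR-222-3p (right) in black with the 5 miRNAs of most similar pattern. The left profiles are low in both e13.5 libraries, and the right ones are lower in e13.5 WT than in e13.5 KO.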

How the data were processed

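Small RNA libraries were built from TRIZOL-extracted, DNase-treated total RNA with the NEXTFLEX Small RNA kit, per the labels. The authors deposited 1 table of raw read counts per hairpin and mature miRNA, 1 column per library, not normalised. Per the submitters' processing notes the build was mm10. No source used here gives the aligner, the counter or how multiply matching reads were handled.

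Mature counts were used, and 22 of 1974 mature rows whose counts agreed within 1% of their total (total at least 20, counts in at least 3 libraries) with another row were merged into it, which left 1952. No member was among them, and 0 columns belonged to other samples. A two-sided quasi-likelihood test (edgeR 4.0.16, R 4.3.3; TMM scaling; filterByExpr, minimum count 10) was fitted over all mature rows, with Benjamini-Hochberg adjustment over all rows tested and a threshold of 0.05. limma 3.58.1 tested arm ratios with a prior count of 2 and, like DESeq2 1.42.0, served as an alternative. Each fit was also run on simulated counts, with less spread than edgeR found here, as a check of the code only. At e13.5 log2 folds came from CPM after TMM scaling (prior count 2), without a test. Sequences came from RefSeq and neighbouring genes from GENCODE.

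Named miRNAs were the 4 members, those with the 3p seed, up to the 4 most abundant of each of 7 lists with any others needed to give a count, and for each 3p arm the 5 of most similar pattern. The members and lists were chosen with earlier results of these data known. Adult replicates carry the numbers 1 and 2 in both genotypes, and the labels do not tie them to a shared animal or day, so they were not paired.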

Additional observations from a re-analysis of the deposited data

How the results depend on the processing

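The stage difference of miR-221-3p passed in all 15 alternatives (−7.06 to −5.93) and that of miR-222-3p in 14 of 15, the exception being the knockout libraries alone (−2.44). The 5p arms were less stable: the stage log2 fold of miR-221-5p lost its call under median-of-ratios factors (−1.19), library totals (−0.83), DESeq2 (−1.19) or the knockout libraries alone (−1.07), and that of miR-222-5p with these (−1.82, −1.47, −1.84 and −1.65) or with no filter (−2.66). Leaving out 1 library gave −2.45 to −1.40 and −3.06 to −1.90. As ratios of mean levels, e13.5 over adult on the log2 scale, TMM-scaled CPM gave −6.93 for miR-221-3p, −1.94 for miR-221-5p, −3.63 for miR-222-3p and −2.69 for miR-222-5p, against −5.86, −0.72, −2.38 and −1.55 from plain CPM. Of the stage calls 50.8% were higher at e13.5 by TMM, 64.4% by median-of-ratios scaling and 68.7% by library totals. They numbered 231 in the knockout libraries alone and 261 to 381 with 1 library left out.

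Adult genotype calls numbered 9 with no filter and 5 to 47 with 1 library left out (35 without KO replicate 1, 47 without KO replicate 2). miR-221-3p turned to −0.01 with library totals. With 1 library left out the log2 folds were −0.48 to 0.39 for miR-221-3p, −0.34 to 0.16 for miR-221-5p, −0.48 to 0.01 for miR-222-3p and −1.51 to −0.47 for miR-222-5p (edgeR adjusted p = 0.198 at the lowest, without KO replicate 2). With the replicate number as a block 5 miRNAs were called and the members had 0.01 (miR-221-3p), −0.05 (miR-221-5p), −0.18 (miR-222-3p) and −0.91 (miR-222-5p). The replicate 1 minus 2 differences of the knockout and wild-type adults had a correlation of r = 0.009 over 544 miRNAs. Such a correlation does not register a shift common to all miRNAs. TMM factors were 0.9616 (KO) and 0.9022 (WT) for replicate 1, above 0.5674 (KO) and 0.7554 (WT) for replicate 2. Whether same-numbered libraries shared a day or preparation was not tested. Over both stages, hairpin rows gave 3 calls and leaving out 1 library 3 to 5, with log2 folds of −0.14 to 0.25 for miR-221-3p, −0.13 to 0.46 for miR-221-5p, −0.28 to 0.63 for miR-222-3p and −1.13 to −0.35 for miR-222-5p. The genotype by stage calls numbered 1 with library totals, 2 with no filter, 4 by DESeq2 and 0 to 87 with 1 adult library left out (40 without KO replicate 2). There miR-221-3p ran from −0.09 to 0.78, miR-222-3p from 1.74 to 2.09 and miR-222-5p from 0.34 to 1.51. This test could not be fitted without an e13.5 library. Arm-ratio settings were chosen after seeing the data. They called 63 hairpins in wild-type and 52 in knockout libraries alone and 43 to 109 with 1 library left out, with miR-222 at −2.07 to −1.31. At e13.5, library totals put 176 miRNAs at least 2-fold higher in KO and 81 lower, against 99 and 177 by TMM, and gave 2.45 for miR-222-3p, 1.58 for miR-221-5p and 1.06 for miR-221-3p. The cause of these changes was not tested. With 4 and 8 counts at e13.5, depth limits miR-222-5p.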
